A study of Mus musculus with 2 samples.

Results

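The 10 genes described here encode subunits of the Polycomb repressive complexes: Ezh1, Ezh2, Eed, Suz12 and Jarid2 of Polycomb repressive complex 2 (PRC2), and Ring1, Rnf2, Bmi1, Pcgf6 and L3mbtl2 of Polycomb repressive complex 1 (PRC1). They were picked by gene name as complex members, with earlier results of these data known. All 10 genes were found in the deposited table through the GENCODE M21 mouse annotation, with 68 of its 93615 transcripts. RNA was sequenced from pro-B cells, the B cell precursors of bone marrow, of 2 genotypes: Setdb1 Δ/Δ, in which the gene for the histone H3 lysine 9 methyltransferase SETDB1 is deleted, and Setdb1 C/C, with undeleted alleles. Cells of both genotypes carried a bcl2 transgene (bcl2-tg), were sorted by flow cytometry and were grown for 4 days with 5 ng/µl interleukin 7 (IL-7). The labels do not give the Cre or promoter behind the deletion or the transgene, the number, age or sex of the animals, or whether animals were pooled. With 1 library per genotype, the differences below were not checked in replicates and none carries a p-value.

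Polycomb proteins keep genes silent through chromatin. PRC2 methylates lysine 27 of histone H3 through its catalytic subunit, EZH1 or EZH2, which works only when bound to the core subunits EED and SUZ12, and accessory subunits such as JARID2 help bring it to its targets. PRC1 attaches ubiquitin to histone H2A through RING1 or RNF2 paired with a PCGF protein, of which BMI1 and PCGF6 are members. Canonical PRC1 also holds a CBX protein that reads the PRC2 mark, whereas the variant complex PRC1.6 holds PCGF6 and L3MBTL2 and is known for silencing germline genes. In B cell precursors, EZH2 is needed for normal rearrangement of immunoglobulin heavy chain genes, and BMI1 and EZH2 are known repressors of the Cdkn2a locus.

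The values are RPKM (reads per kilobase of transcript, scaled to the size of the library), 1 per transcript and library. The difference between the libraries is given as log2((Δ/Δ + 0.5) / (C/C + 0.5)), called the log2 ratio, where 0.5 RPKM is an added constant that makes the change of low genes look smaller. A gene or transcript is called higher or lower when this log2 ratio is at least 1 or at most -1, a rule of size and not a test. Ratios of Δ/Δ to C/C are plain ratios of RPKM, and their 95% intervals cover counting error only. Because the table lists overlapping transcripts of each gene with separate values, 2 transcripts are given where they differ: the transcript of highest RPKM, which stood for the gene in all counts, and the longest protein-coding transcript, which takes in reads from most exons and is used to compare levels between genes. The second choice was added after the values were seen.

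The recovered depth was 193.3 × 1e6 reads in Δ/Δ and 170.6 × 1e6 reads in C/C. Setdb1 itself measured 12.6 RPKM in Δ/Δ and 16.97 RPKM in C/C (log2 ratio -0.41), a value over the whole transcript that cannot show how complete the deletion was. All 18 listed markers of pro-B and B lineage cells were measured at 1 RPKM or more and summed to 4922 RPKM in Δ/Δ and 6661 RPKM in C/C. Of these 18, 1 passed the rule upwards in Δ/Δ and 5 downwards. Of all 12556 genes of 1 RPKM or more in a library, 6.28% passed it upwards and 6.66% downwards. Markers of other blood cells were mostly above C/C in Δ/Δ. Counted over every listed marker, whatever its level, 20 of 20 myeloid markers had more RPKM in Δ/Δ, as had 13 of 14 of erythroid cells and megakaryocytes, 8 of 10 of dendritic cells and 9 of 14 of T and NK cells. The myeloid list summed to 384 RPKM in Δ/Δ and 134 RPKM in C/C, and the dendritic list to 109 RPKM in Δ/Δ and 45.7 RPKM in C/C. The erythroid and megakaryocyte list summed to 78.5 RPKM in Δ/Δ and 9.41 RPKM in C/C. The T and NK list went the other way in sum, at 98.7 RPKM in Δ/Δ and 104 RPKM in C/C. In that list 4 of 14 markers had less RPKM in Δ/Δ, among them Lat (36.3 RPKM in Δ/Δ and 75.7 RPKM in C/C). Of the 20 myeloid markers 0 were at 0 in Δ/Δ and 2 in C/C, among them Mpo (0.434 RPKM in Δ/Δ). The part of these cells in the differences of Polycomb genes was not tested, and in bulk RNA fewer cells of a type and less RNA per cell cannot be told apart. The libraries also differed in sex-linked RNA, with Xist at 23.7 RPKM in Δ/Δ and 0.0940 RPKM in C/C, so genotype and sex cannot be told apart. The 10 genes lie on chromosomes 1, 2, 6, 7, 11, 13, 15, 17 and 19, none on X or Y.

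Of the catalytic subunits of PRC2, neither passed the rule: Ezh2 was close to equal in the libraries and Ezh1 had a ratio below 1. Ezh2 (chr6:47530139-47595341 in GRCm38, minus strand) measured 45.7 RPKM in Δ/Δ and 42.7 RPKM in C/C over its longest coding transcript, Ezh2-201. The ratio was 1.07 (interval 1.04 to 1.097), from 24592 reads in Δ/Δ and 20324 in C/C. EZH2 is the form of the enzyme found mostly in dividing cells, and Ezh2 was the most abundant of the 10 genes in both libraries. Its mean level was above that of 87.5% of measured genes. Its 12 transcripts ran from a log2 ratio of -0.27 to 0.34. The transcripts at the 5′ end, Ezh2-211 (21.7 RPKM in Δ/Δ and 26.3 RPKM in C/C) and Ezh2-205 (27.5 RPKM in Δ/Δ and 30.8 RPKM in C/C), were on the lower side. Transcripts nearer the 3′ end with a retained intron were on the higher side, with Ezh2-212 at 7.11 RPKM in Δ/Δ and 5.52 RPKM in C/C and Ezh2-210 at 19.4 RPKM in Δ/Δ and 16.1 RPKM in C/C. Ezh1 (chr11:101191115-101226463, minus strand), the form also found in resting cells, measured 9.19 RPKM in Δ/Δ and 12.2 RPKM in C/C over Ezh1-202. That ratio was 0.751 (interval 0.719 to 0.785), a log2 ratio of -0.39, and 7 of the 9 Ezh1 transcripts were below 0. The exceptions were the short Ezh1-208 (2.65 RPKM in Δ/Δ and 1.95 RPKM in C/C, interval 0.978 to 1.90) and Ezh1-207 (5.05 RPKM in Δ/Δ and 5.01 RPKM in C/C). Per length, Ezh2 was 4.97 times as abundant as Ezh1 in Δ/Δ and 3.49 times in C/C, while the sum of both was 54.9 RPKM in Δ/Δ and 54.98 RPKM in C/C.

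**Figure D1:**
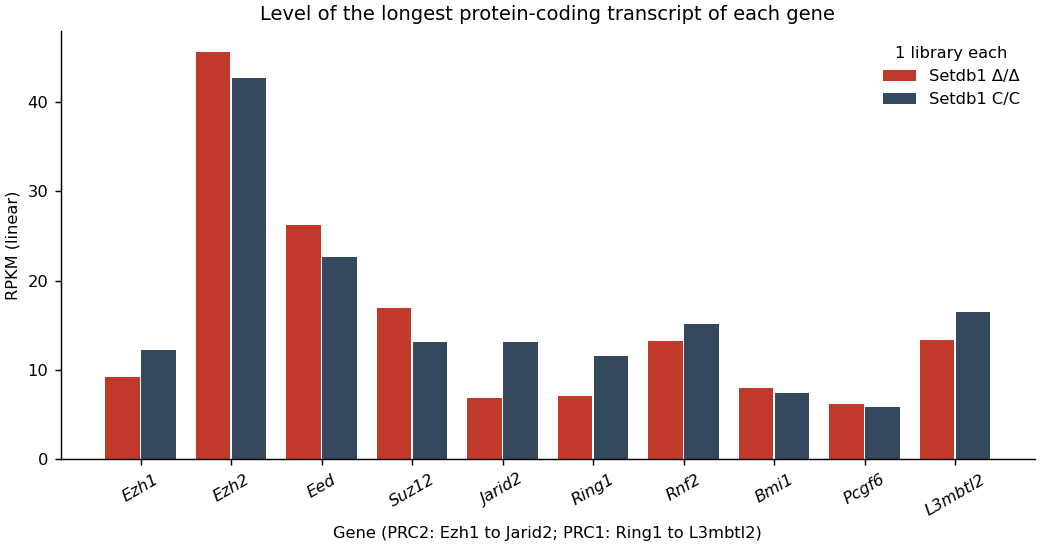
RPKM (linear axis) of the longest protein-coding transcript of each of the 10 genes, in Setdb1 Δ/Δ (red) and Setdb1 C/C (dark), 1 library each, so there are no error bars. Ezh2 has the tallest bars (45.7 RPKM in Δ/Δ and 42.7 RPKM in C/C), and Jarid2 has the widest gap in proportion (6.85 RPKM in Δ/Δ and 13.1 RPKM in C/C).

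The core subunits Suz12 and Eed did not pass the rule. Over their longest coding transcripts both had ratios above 1, but the values varied along each gene. Suz12 (chr11:79993106-80034123, plus strand), the scaffold of PRC2, measured 17.0 RPKM in Δ/Δ and 13.1 RPKM in C/C over Suz12-201, a ratio of 1.296 (interval 1.25 to 1.34). The transcript of highest RPKM, Suz12-204, takes in 4 exons near the 3′ end and measured 20.3 RPKM in Δ/Δ and 12.8 RPKM in C/C (log2 ratio 0.65). The short Suz12-202, annotated as a target of nonsense-mediated decay, measured 17.4 RPKM in Δ/Δ and 7.10 RPKM in C/C. Its ratio of 2.45 (interval 2.14 to 2.81) gave a log2 ratio of 1.24, and it was the only 1 of the 68 transcripts that passed the rule upwards. It has 6 exons between 2.7 and 20.5 kb from the first start. Suz12-205, with 6 exons over nearly the same stretch, measured 19.2 RPKM in Δ/Δ and 11.4 RPKM in C/C (log2 ratio 0.72). Suz12-203, annotated as holding a retained intron and ending 6.5 kb from the first start, measured 5.73 RPKM in Δ/Δ and 6.11 RPKM in C/C, with an interval of the ratio (0.806 to 1.09) that holds 1. Transcripts of a gene share reads, so their values are not independent.

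Eed, whose product binds trimethylated lysine 27 and stimulates the enzyme, changed sign with the transcript. Over Eed-201, with 12 exons, it measured 26.3 RPKM in Δ/Δ and 22.6 RPKM in C/C, a ratio of 1.16 (interval 1.11 to 1.21). The short Eed-202, with 2 exons near the 5′ end and annotated as holding a retained intron, measured 42.4 RPKM in Δ/Δ and 53.2 RPKM in C/C, a ratio of 0.796 (interval 0.747 to 0.848). The log2 ratio was therefore 0.21 by the longest coding transcript and -0.33 by the transcript of highest RPKM. Eed lies at chr7:89954654-89980983 on the minus strand. Exons of Eed-201 overlap those of E230029C05Rik on the other strand (2.48 RPKM in Δ/Δ and 3.11 RPKM in C/C), and the library kit named in the labels is not one that marks strand, so reads of the overlap cannot be told apart. The same holds for Ezh2 and Gm26625 (4.14 RPKM in Δ/Δ and 4.25 RPKM in C/C), and for Suz12-201 and Gm26563 (3.34 RPKM in Δ/Δ and 2.65 RPKM in C/C).

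Jarid2, the accessory subunit that recruits PRC2 to chromatin, was the 1 gene of the 10 that was called lower in Δ/Δ. The transcript of highest RPKM, Jarid2-207, measured 8.996 RPKM in Δ/Δ and 19.96 RPKM in C/C. Its log2 ratio was -1.11 and its ratio 0.451 (interval 0.407 to 0.498). Over the longest coding transcript, Jarid2-208, it measured 6.85 RPKM in Δ/Δ and 13.1 RPKM in C/C, from 7944 reads in Δ/Δ and 13409 in C/C. That is 1.91-fold lower (ratio 0.523, interval 0.503 to 0.544), and its log2 ratio of -0.89 is just short of the rule. Of the 16 Jarid2 transcripts (chr13:44729474-44921643, plus strand) 15 were below 0 and 5 passed the rule downwards; these are the only 5 of the 68 transcripts that did. Among all 47420 transcripts of 1 RPKM or more, 4.93% passed it downwards and 4.74% upwards.

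The Jarid2 difference was smaller at the 5′ end. Jarid2-214, which lies within the first 2.1 kb, measured 0.883 RPKM in Δ/Δ and 0.821 RPKM in C/C, from 73 and 60 reads, with an interval of 0.645 to 1.81. Jarid2-213, which ends 93.9 kb from the first start, measured 4.14 RPKM in Δ/Δ and 4.60 RPKM in C/C, and its interval of 0.704 to 1.15 also holds 1. Jarid2-204 measured 5.72 RPKM in Δ/Δ and 8.35 RPKM in C/C (log2 ratio -0.51), and Jarid2-212, which ends at 118.9 kb, 5.67 RPKM in Δ/Δ and 8.95 RPKM in C/C (log2 ratio -0.62). The other 12 transcripts, which reach 144.8 kb or farther, all lay between -0.84 and -1.11. They include Jarid2-211, which starts only at 111.2 kb and measured 8.27 RPKM in Δ/Δ and 17.6 RPKM in C/C (log2 ratio -1.04).

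**Figure D2:**
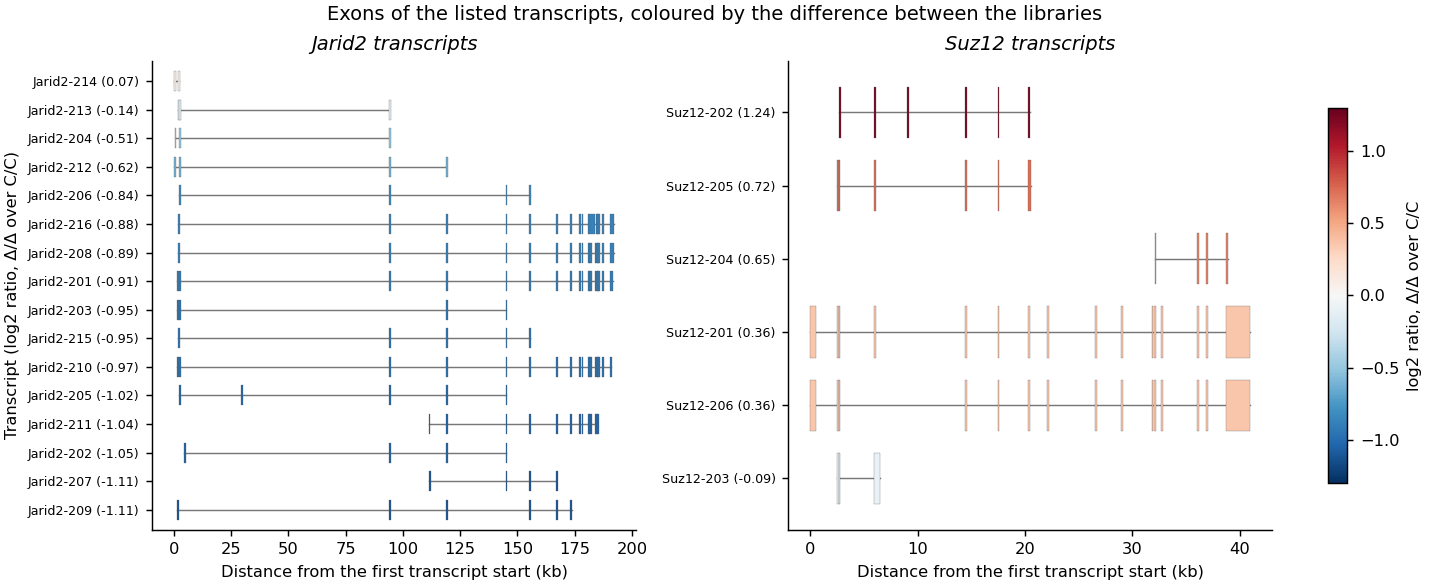
Exons (boxes) of the 16 Jarid2 and 6 Suz12 transcripts against distance from the first transcript start in kilobases, ordered and coloured by log2 ratio (blue, lower in Δ/Δ; red, higher), 1 library per genotype. The 4 Jarid2 transcripts that end by 118.9 kb are the palest, from 0.07 to -0.62, and the Suz12 transcripts run from -0.09 to 1.24.

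RefSeq places 2 Jarid2 starts 497 bases apart, at the first bases of Jarid2-210 (log2 ratio -0.97) and Jarid2-208. These RefSeq starts, labelled first and second below, lie 1.3 and 1.8 kb from the start of Jarid2-214, from which the distances above were counted. The 250 bases before each are shown with those of Suz12 and Ring1, because Jarid2 and Ring1 had the lowest log2 ratios among the longest coding transcripts of the 10 genes, and Suz12 the highest. Sequences run 5′ to 3′ on the gene's strand (RefSeq, GRCm38.p6), and capitals mark each CG pair, the dinucleotide whose clusters (CpG islands) Polycomb complexes are known to occupy in mammals.
Jarid2, first start, plus strand, chr13:44730524-44730773: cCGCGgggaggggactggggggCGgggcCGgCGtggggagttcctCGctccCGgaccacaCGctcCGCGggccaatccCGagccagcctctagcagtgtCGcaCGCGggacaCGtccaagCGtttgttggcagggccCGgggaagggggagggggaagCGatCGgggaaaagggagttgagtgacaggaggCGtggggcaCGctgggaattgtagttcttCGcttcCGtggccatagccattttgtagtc
Jarid2, second start, plus strand, chr13:44731021-44731270: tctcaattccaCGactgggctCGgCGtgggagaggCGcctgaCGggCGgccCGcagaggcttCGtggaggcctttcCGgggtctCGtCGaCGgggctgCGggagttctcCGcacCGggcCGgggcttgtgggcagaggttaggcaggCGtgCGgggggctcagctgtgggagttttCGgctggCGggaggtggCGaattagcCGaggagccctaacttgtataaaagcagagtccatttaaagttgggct
Suz12, plus strand, chr11:79992856-79993105: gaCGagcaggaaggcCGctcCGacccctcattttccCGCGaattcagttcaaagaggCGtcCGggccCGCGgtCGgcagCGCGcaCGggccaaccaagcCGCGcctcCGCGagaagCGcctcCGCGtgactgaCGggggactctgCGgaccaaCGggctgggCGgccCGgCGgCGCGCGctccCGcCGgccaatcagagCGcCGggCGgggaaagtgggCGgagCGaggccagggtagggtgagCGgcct
Ring1, minus strand, chr17:34024681-34024930: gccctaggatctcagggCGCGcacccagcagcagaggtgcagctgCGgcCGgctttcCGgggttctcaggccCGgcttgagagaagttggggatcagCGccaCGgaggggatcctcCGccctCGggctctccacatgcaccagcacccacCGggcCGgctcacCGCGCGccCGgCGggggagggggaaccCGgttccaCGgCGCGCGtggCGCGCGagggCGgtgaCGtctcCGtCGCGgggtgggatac
These stretches hold 23 and 22 CG pairs for Jarid2, 37 for Suz12 and 30 for Ring1. Over windows of 300 bases, which add 50 bases after the start, the 11 windows of the 10 genes held 17 to 41 CG pairs with a median of 23, against a median of 7 over 32851 windows of all genes. Of all windows 31.4% held 17 or more, a limit taken from the lowest member. The E2F motif, searched on both strands as TTTCGCGC or TTTGGCGC, was in 1 of the 11 windows, that of Ezh2, and in 0.813% of all windows. The genes at the low and high ends, Jarid2 and Suz12, were thus both richer in CG pairs than the median window.

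Neither ubiquitin ligase gene of PRC1 passed the rule; both had ratios below 1. Ring1 (chr17:34020792-34024680, minus strand) measured 7.12 RPKM in Δ/Δ and 11.6 RPKM in C/C over Ring1-201. It was 1.63-fold lower (ratio 0.615, interval 0.574 to 0.659). Its 3 transcripts agreed in sign, from -0.80 to -0.64, and none passed the rule. Rnf2 (chr1:151469406-151500955, minus strand), the main ligase of mouse embryonic stem cells, has 1 listed transcript, which measured 13.2 RPKM in Δ/Δ and 15.1 RPKM in C/C. Its ratio was 0.875 (interval 0.837 to 0.914), a log2 ratio of -0.19, or -0.09 after centring on the median of all genes. Rnf2 therefore made up 65.0% of the summed RPKM of both in Δ/Δ and 56.6% in C/C, and the sum was 20.3 RPKM in Δ/Δ and 26.7 RPKM in C/C.

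Among the partners of these ligases, none passed the rule: Bmi1 and Pcgf6 were nearly level over their longest coding transcripts and L3mbtl2 had a ratio below 1. Bmi1 (chr2:18677018-18686629, plus strand), the PCGF protein of canonical PRC1 needed for self-renewal of blood stem cells, measured 7.94 RPKM in Δ/Δ and 7.43 RPKM in C/C over Bmi1-201 (ratio 1.07, interval 1.01 to 1.13). Its transcript of highest RPKM, Bmi1-203, went the other way. That transcript holds 3 exons in the 5′ part of the gene and measured 14.2 RPKM in Δ/Δ and 18.8 RPKM in C/C (log2 ratio -0.39), whereas the other 6 transcripts lay between 0.03 and 0.51. Bmi1-207, at the high end, measured 16.2 RPKM in Δ/Δ and 11.2 RPKM in C/C. The processed pseudogene Gm5946 on chromosome X matches 2658 bases of Bmi1-201 at 97.0% identity and was listed at 0 RPKM in both libraries, and how reads that match both copies were placed is not known.

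Pcgf6 (chr19:47033617-47050904, minus strand), the PCGF protein of PRC1.6, had the lowest level of the 10 by the longest coding transcript, at 6.18 RPKM in Δ/Δ and 5.84 RPKM in C/C. It was the 1 gene whose interval by that transcript, 0.976 to 1.15, holds 1. L3mbtl2 (chr15:81663889-81688315, plus strand), the PRC1.6 subunit with domains that bind methylated lysines, measured 13.4 RPKM in Δ/Δ and 16.5 RPKM in C/C over L3mbtl2-201 (ratio 0.808, interval 0.776 to 0.842). It was also the most even of the genes with many transcripts: all 11 were below 0, from -0.38 to -0.17. Exons toward its 3′ end overlap those of Chadl on the other strand, which measured up to 2.12 RPKM in Δ/Δ and 2.52 RPKM in C/C.

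Counted by the transcript of highest RPKM, 0 of the 10 genes were higher and 1 was lower in Δ/Δ. Of 12556 measured genes, those of 1 RPKM or more in a library, 6.28% were higher and 6.66% lower, so 1 lower gene of 10 is a share close to that of all genes. The median log2 ratio of the 10 was -0.32, against -0.09 over all measured genes, with 7 of the 10 below 0 and 57.7% of all measured genes below 0. That median did not hold with the longest coding transcripts. With those it was -0.06 for the 10, against -0.08 over 12211 genes, with 5 genes on each side of 0 (56.3% of all genes were below 0) and 0 called in either direction, against 6.1% higher and 6.22% lower of all genes. The sign differed between these transcripts for 2 genes, Eed and Bmi1. Within genes, the log2 ratios of transcripts of 1 RPKM or more spanned 1.32 in Suz12, 0.97 in Jarid2 and 0.90 in Bmi1, against a median span of 0.21 over 7527 genes with at least 2 such transcripts, of which 3.56% reached a span of 1. The span grows with the number of transcripts listed, which was not matched here.

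**Figure D3:**
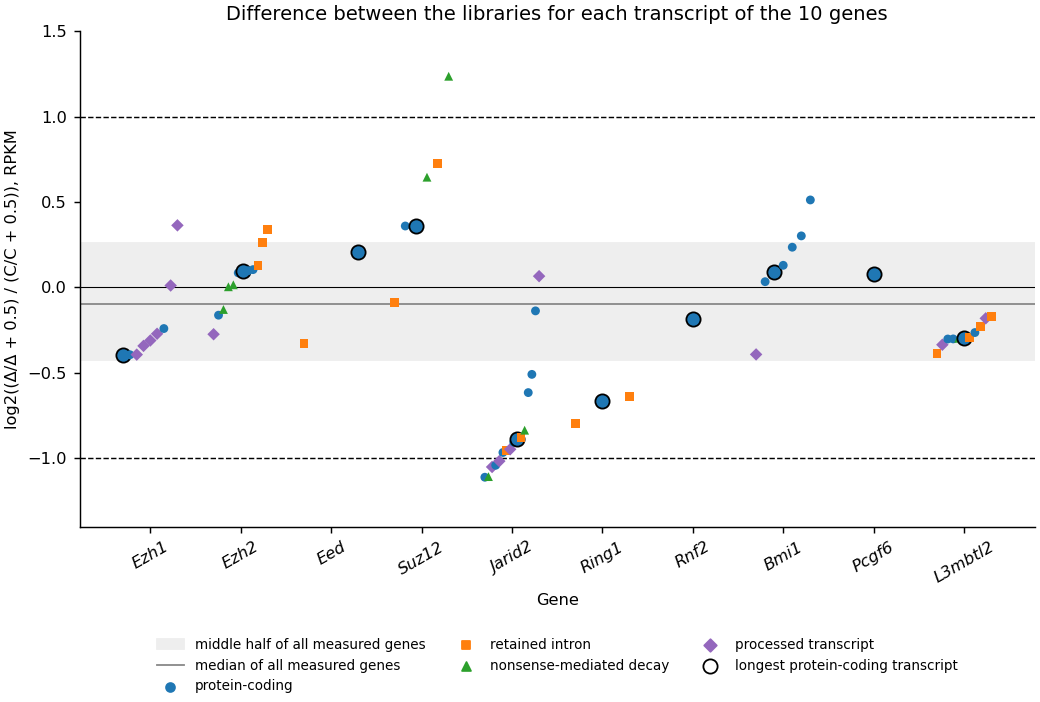
Log2 ratio of Δ/Δ over C/C for each of the 68 listed transcripts of the 10 genes, by annotated transcript type, with the longest protein-coding transcript ringed. The grey band runs from -0.42 to 0.26, the quartiles of all measured genes, and the dashed lines mark the rule at 1 and -1, which 1 Suz12 and 5 Jarid2 transcripts passed.

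The other Polycomb genes came from 9 lists of complex members, of which 58 of 63 genes were measured. In Δ/Δ 2 were higher and 3 lower, against 6.28% and 6.66% of all measured genes, and their median log2 ratio was -0.17, against -0.09 for all. Without genes on X and Y, 2 were higher and 2 lower of 52. Of the called genes, Sfmbt2 reached 1 RPKM only in Δ/Δ and Uty only in C/C. Each of these was thus counted as measured only through the library where it was higher. In the PRC2 core, the histone-binding subunits Rbbp4 (103.9 RPKM in Δ/Δ and 132.8 RPKM in C/C) and Rbbp7 (136.7 RPKM in Δ/Δ and 126.8 RPKM in C/C) were within the rule. Over the longest coding transcripts Rbbp4 measured 61.7 RPKM in Δ/Δ and 67.5 RPKM in C/C, and Rbbp7 109.7 RPKM in Δ/Δ and 90.7 RPKM in C/C. By those transcripts both exceed the dedicated PRC2 genes in level, and both also serve other chromatin complexes.

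Of 7 measured PRC2 accessory genes 3 were lower and 0 higher, against 6.66% and 6.28% of all measured genes, with Jarid2 among the 3. With the longest coding transcripts 2 were lower, against 6.22% of all genes, since Jarid2 then missed the rule. The Polycomb-like genes, whose products carry a Tudor domain and guide PRC2.1 to CpG islands, differed in direction. Phf1 measured 4.30 RPKM in Δ/Δ and 11.1 RPKM in C/C, 2.59-fold lower (ratio 0.387, interval 0.359 to 0.416). Phf19 measured 4.12 RPKM in Δ/Δ and 10.2 RPKM in C/C, 2.49-fold lower (ratio 0.402, interval 0.378 to 0.428). Their relative Mtf2 measured 44.5 RPKM in Δ/Δ and 31.1 RPKM in C/C, within the rule at a log2 ratio of 0.51. Over its longest coding transcript Mtf2 measured 22.6 RPKM in Δ/Δ and 14.25 RPKM in C/C (log2 ratio 0.65). By either transcript Mtf2 was the highest of the 3 in level in both libraries. Lcor (2.09 RPKM in Δ/Δ and 3.03 RPKM in C/C) was within the rule, as were Aebp2, a partner of JARID2 in PRC2.2 (16.8 RPKM in Δ/Δ and 15.9 RPKM in C/C), and Epop (2.20 RPKM in Δ/Δ and 2.86 RPKM in C/C).

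**Figure D4:**
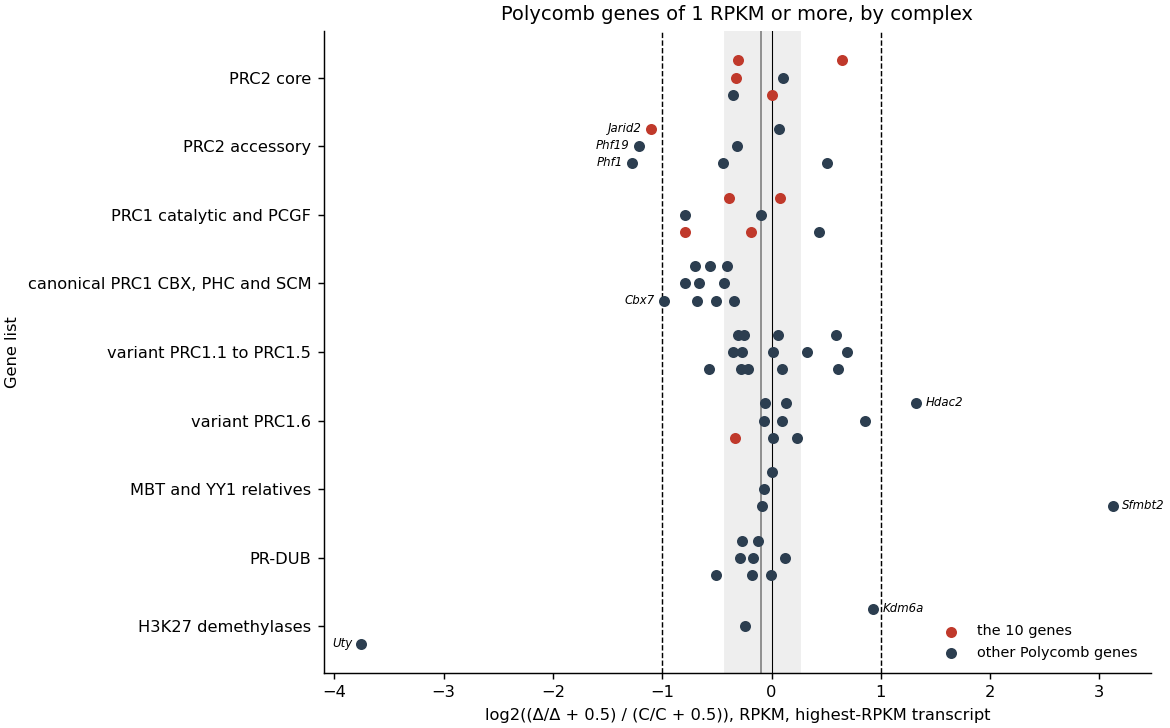
Log2 ratio of Δ/Δ over C/C of each Polycomb gene of 1 RPKM or more, by complex, using the transcript of highest RPKM; red points are the 10 genes, grey marks the quartiles and median of all measured genes, and dashed lines the rule at 1 and -1. The 10 canonical PRC1 genes all lie left of 0, from -0.99 to -0.34. Phf1, Phf19, Jarid2 and the Y-linked Uty (-3.75) lie beyond -1, and Hdac2 and Sfmbt2 beyond 1.

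The CBX, PHC and SCM genes of canonical PRC1 were all on the low side in Δ/Δ, though none passed the rule. All 10 measured genes of 11 listed were below 0, with a median log2 ratio of -0.61. Of all measured genes 57.7% were below 0, with a median of -0.09. The canonical PRC1 list summed to 132 RPKM in Δ/Δ and 213 RPKM in C/C. All 10 were also below 0 with the longest coding transcripts (median -0.62) and after centring on the median of all genes (highest value -0.25). With the longest coding transcripts 1 of the 10 was called lower, against 6.22% of all genes. Cbx7, a reader of trimethylated lysine 27, was lowest at 10.8 RPKM in Δ/Δ and 21.9 RPKM in C/C (log2 ratio -0.99, and -1.08 with Cbx7-201). Cbx2 measured 12.9 RPKM in Δ/Δ and 22.7 RPKM in C/C, and Cbx6 16.9 RPKM in Δ/Δ and 27.8 RPKM in C/C. The polyhomeotic gene Phc2, whose product joins PRC1 into clusters, measured 14.6 RPKM in Δ/Δ and 23.7 RPKM in C/C. B lineage and proliferation genes were on the low side in the same library, and their part was not tested. Their median log2 ratios were -0.64 over 18 and -0.23 over 18 genes, against -0.09 over all measured genes. With the longest coding transcripts the medians were -0.48 and -0.25, against -0.08 over all genes. Of the 18 B lineage genes 5 were above 0: Vpreb2 (1.09), Dntt (0.85), Lef1 (0.42), Vpreb1 (0.26) and Il7r (0.18). Of the 18 proliferation genes 1 was called lower, against 6.66% of all measured genes. It was the S phase regulator E2f2 (23.2 RPKM in Δ/Δ and 59.3 RPKM in C/C), while the mitotic kinase gene Aurkb, Top2a and Rrm2 lay between -0.89 and -0.76. Over its longest coding transcript Top2a was at -0.38. The list was not uniform: 4 of its 18 genes were above 0, the replication genes Mcm4 (0.48), Mcm2 (0.28), Mcm6 (0.25) and Pcna (0.25).

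The PCGF genes differed among themselves. Pcgf1, of the variant complex PRC1.1, measured 12.2 RPKM in Δ/Δ and 21.4 RPKM in C/C (log2 ratio -0.79), and Pcgf5 went the other way at 9.41 RPKM in Δ/Δ and 6.85 RPKM in C/C (log2 ratio 0.43). Pcgf3 measured 17.9 RPKM in Δ/Δ and 19.2 RPKM in C/C, with an interval of 0.858 to 1.01 that holds 1. Over its longest coding transcript Pcgf3 measured 5.44 RPKM in Δ/Δ and 5.22 RPKM in C/C. That ratio was 1.04, and its interval of 0.996 to 1.09 also holds 1. Pcgf2, the closest relative of Bmi1, was below 1 RPKM in both libraries, at 0.190 RPKM in Δ/Δ and 0.767 RPKM in C/C. Of 14 genes of the variant complexes PRC1.1 to PRC1.5, 7 were above 0 and 7 below, and none was called. The extremes were the deubiquitinase gene Usp7 (115.4 RPKM in Δ/Δ and 71.4 RPKM in C/C), Skp1a (188 RPKM in Δ/Δ and 123.5 RPKM in C/C), the kinase subunit gene Csnk2a1 (78.6 RPKM in Δ/Δ and 52.1 RPKM in C/C) and Fbrs (7.56 RPKM in Δ/Δ and 11.5 RPKM in C/C).

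Of the 9 PRC1.6 genes, 1 was higher and 0 lower, against 6.28% and 6.66% of all measured genes. Their median was 0.10, against -0.09 over all measured genes. The higher gene was the histone deacetylase gene Hdac2, at 84.4 RPKM in Δ/Δ and 33.4 RPKM in C/C (ratio 2.53, interval 2.38 to 2.68). That value is from Hdac2-203, a transcript with a retained intron, and over the longest coding transcript Hdac2 measured 16.5 RPKM in Δ/Δ and 10.6 RPKM in C/C (log2 ratio 0.61), short of the rule. Cbx3, which encodes HP1γ, likewise had a log2 ratio of 0.85 by its top transcript and 0.15 by the longest coding one. Wdr5 (46.0 RPKM in Δ/Δ and 39.1 RPKM in C/C), E2f6 (9.798 RPKM in Δ/Δ and 8.90 RPKM in C/C) and the DNA-binding subunits Mga (19.4 RPKM in Δ/Δ and 18.0 RPKM in C/C) and Max (28.2 RPKM in Δ/Δ and 29.5 RPKM in C/C) were within the rule. Over the longest coding transcript Mga measured 9.51 RPKM in Δ/Δ and 5.87 RPKM in C/C (log2 ratio 0.65).

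The largest difference among autosomal Polycomb genes was that of Sfmbt2, an imprinted gene with MBT domains whose product is a relative of the fly Polycomb protein Sfmbt. It measured 7.12 RPKM in Δ/Δ and 0.373 RPKM in C/C, a ratio of 19.1 (interval 16.8 to 21.8), and the top and longest coding transcript were the same. Its relatives Sfmbt1 (3.98 RPKM in Δ/Δ and 4.27 RPKM in C/C) and L3mbtl3 (10.7 RPKM in Δ/Δ and 10.7 RPKM in C/C) and the DNA-binding factor gene Yy1 (26.1 RPKM in Δ/Δ and 27.4 RPKM in C/C) did not pass the rule. Over its longest coding transcript Yy1 measured 20.2 RPKM in Δ/Δ and 24.7 RPKM in C/C (log2 ratio -0.28). L3mbtl1 was listed at 0 in Δ/Δ and at 0.0520 RPKM in C/C. None of the 8 measured genes of the PR-DUB complex, which removes ubiquitin from histone H2A, was called. Of the 8, 7 were below 0 and 1 above. Those with log2 ratios farthest from 0, all below it, were Mbd6 (5.97 RPKM in Δ/Δ and 8.71 RPKM in C/C), the catalytic gene Bap1 (37.7 RPKM in Δ/Δ and 46.0 RPKM in C/C), Asxl1 (13.3 RPKM in Δ/Δ and 16.2 RPKM in C/C) and Hcfc1 (32.7 RPKM in Δ/Δ and 37.1 RPKM in C/C).

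The X-linked Kdm6a, which encodes an enzyme that removes the PRC2 mark, and its Y-linked relative Uty differed along with the sex-linked markers. Kdm6a measured 17.6 RPKM in Δ/Δ and 8.995 RPKM in C/C (log2 ratio 0.93, and 1.11 over the longest coding transcript). Uty was listed at 0 in Δ/Δ and at 6.24 RPKM in C/C, with an interval of the ratio from 0 to 0.0092. Setting the Δ/Δ library at 3 reads would make it 268-fold lower. The Y-linked Ddx3y measured 0.00900 RPKM in Δ/Δ and 10.2 RPKM in C/C. The autosomal Kdm6b (1.07 RPKM in Δ/Δ and 1.36 RPKM in C/C), whose product also removes the PRC2 mark, was within the rule.

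Known Polycomb targets were mostly near 0 in both libraries. Of 87 listed targets 5 reached 1 RPKM, and 47 were listed at 0 in Δ/Δ and 46 in C/C. No Hox gene reached 1 RPKM. Some targets below 1 RPKM, which were not counted, had intervals that leave out 1, in both directions. Examples are Bmp4 (0.051 RPKM in Δ/Δ and 0.567 RPKM in C/C, interval 0.038 to 0.186) and Sycp3 (0.261 RPKM in Δ/Δ and 0.060 RPKM in C/C, interval 1.78 to 12.8). Cdkn2a, which encodes the cell cycle inhibitors p16 and p19ARF, was lower in Δ/Δ, at 1.46 RPKM in Δ/Δ and 3.58 RPKM in C/C (ratio 0.407, interval 0.327 to 0.504, log2 ratio -1.06). This call ended after centring on the median (-0.97), with an added constant of 1 RPKM (-0.90) and with a common sum without the 20 most abundant genes. The homeobox gene Meis1 measured 2.91 RPKM in Δ/Δ and 2.20 RPKM in C/C. Among germline targets of PRC1.6, Tdrkh, a piRNA pathway gene, was higher at 1.84 RPKM in Δ/Δ and 0.557 RPKM in C/C (log2 ratio 1.14, or 0.86 with an added constant of 1 RPKM, where the call ended). Tdrkh counted as measured only through Δ/Δ, the library where it was higher. The meiotic cohesin gene Stag3 measured 24.6 RPKM in Δ/Δ and 12.4 RPKM in C/C by its top transcript (log2 ratio 0.95, or 1.05 after centring), and 17.1 RPKM in Δ/Δ and 6.69 RPKM in C/C over its longest coding transcript, where the log2 ratio of 1.29 passed the rule. Zcwpw1 measured 11.7 RPKM in Δ/Δ and 17.99 RPKM in C/C.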

How the data were processed

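Total RNA of the 2 libraries was freed of ribosomal RNA and sequenced as 101 bp read pairs, per the labels' protocols. The authors deposited 1 table of RPKM values, rounded to 3 decimals, for 93615 Ensembl transcripts. TopHat2 2.0.9, bedtools, mm10 and mm9 are listed, per the submitters' processing notes, without saying which build or annotation the table rests on or whether strand was used. The column headed Del was taken as Δ/Δ and the one headed Wt as C/C.

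Identifiers were matched to GENCODE M21 (GRCm38), which succeeded for 89571 transcripts (95.7%), and coordinates are from that annotation. Each of 36980 gene names was represented by its transcript of highest mean RPKM. Depth was recovered from RPKM multiplied by exonic length, which was within 0.1 of a whole read for 95.6% of low values in Δ/Δ and 96.2% in C/C (transcripts of 100 to 800 bases at up to 0.3 RPKM). Because 2 recovered reads (750 transcripts in Δ/Δ, 662 in C/C) were commoner than 1 (540 in Δ/Δ, 601 in C/C), a pair of reads was counted as 1 fragment in the exact 95% Poisson intervals, which describe counting error alone. A count of 3 reads on a transcript of 2 kilobases corresponds to 0.00776 RPKM in Δ/Δ and 0.00879 RPKM in C/C. A count test could not be run with 1 library per group. The calculation was tested on simulated data.

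Genes named are Setdb1, the 10 genes, other Polycomb genes past the 2-fold rule or among the 4 largest absolute log2 ratios of their list, measured targets, 4 proliferation genes and examples of marker genes. Others named (Aebp2, Epop, Pcgf2, L3mbtl1, E2f6, Mga, Max, Mpo, Ddx3y, the replication genes and the overlapping or copied genes) were added to complete a family or a list after their values were seen. Bmp4 and Sycp3 were likewise added as examples after their values were seen. The members and lists were chosen with earlier results of these data known. Near copies were sought with blastn 2.17.0 (at least 90% identity over 150 bases). Alternatives were other added constants, filters, scalings, transcript choices and fold rules. Python 3.11.15, pandas 2.3.3, numpy 2.4.6, scipy 1.17.1 and matplotlib 3.10.9 were used.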

Additional observations from a re-analysis of the deposited data

How the results depend on the processing

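Among the alternatives run, the choice of transcript moved the median log2 ratio of the 10 genes, and both it and the fold rule moved their counts of calls. The longest transcript of any type left 0 of them lower, with a median log2 ratio of -0.0552. The median over all transcripts of a gene left 0 lower, with a median of -0.12. The longest protein-coding transcript, chosen after seeing the data, left 0 lower, with a median of -0.0552. Jarid2 stayed below 0 in its 10 alternatives, from -1.15 to -0.88, and past the 2-fold rule in 7 of them. Those 7 all kept the transcript Jarid2-207, and the filters among them cannot change the ratio of a gene. Jarid2 fell short of the rule with every other choice of transcript. It was at -0.88 with the longest transcript, -0.93 with the median over transcripts and -0.89 with the longest coding transcript. Eed changed sign in 2 and Bmi1 in 3 of 10 alternatives, and the other 8 genes in none. A 1.5-fold rule called 1583 of the 12556 measured genes higher and 2102 lower. It called 1 of the 10 members higher and 2 lower, and 7 of 58 measured other Polycomb genes higher and 9 lower. Of 5 measured targets it called 2 higher and 2 lower. Of the same genes, a 4-fold rule called 0 members lower, 1 other Polycomb gene higher and 1 lower, and 0 targets in either direction. Over all measured genes it called 220 higher and 234 lower. A filter of 5 RPKM left 9128 genes, of which 452 were higher and 510 lower. It called 0 targets by construction, because the called targets Cdkn2a and Tdrkh were below 5 RPKM in both libraries. That setting therefore cannot show whether their calls hold. Against 1 target higher and 1 lower as reported, an added constant of 1 RPKM called 0 and 0, while 2 were called higher with the longest transcript, the median over transcripts or the longest coding transcript. Centring on the median, or a common sum without the 20 most abundant genes, called 2 targets higher and 0 lower. The causes were not tested beyond what each alternative changes by construction. No paired analysis was possible because each genotype had 1 library, and no library could be left out. At the depth of these libraries, counting error was small for the 10 genes, but the spread between cultures of a genotype is not known, so every difference may be one of these cultures.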
